A study of Arabidopsis thaliana with 59 samples.

Results

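The 10 genes described here encode the enzymes that turn nitrite into glutamine and glutamate in Arabidopsis thaliana: nitrite reductase NIR1, the glutamate synthases GLT1, GLU1 and GLU2, the glutamine synthetases GLN2, GLN1;1, GLN1;2 and GLN1;3, and the glutamate dehydrogenases GDH1 and GDH2. They were taken by gene identifier from a deposited table of 22-nt small RNA over 32375 genes, and all 10 had values. Small RNA was sequenced from aerial parts of untreated plants that were 20 days old (6 days on MS medium, 14 days on soil). The values are amounts of 22-nt small RNA read from each gene, not mRNA levels.

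The study set 14 mutant genotypes against the wild type, Col-0. The double mutants that the deposited comparisons turn on were ein5-1 dcl4-2 and ski2-2 dcl4-2. Each was also carried as a triple mutant with dcl2-1, with ago1-45 or with ago1-27. The remaining mutants were the doubles ein5-1 dcl2-1 and ski2-2 dcl2-1 and the singles ein5-1, ski2-2, dcl4-2 and dcl2-1. There were 4 libraries per genotype, Col-0 included, and 3 for ski2-2 dcl4-2 ago1-27, 59 in all. Every mutation was present in the whole plant, and aerial parts pool many cell types, so less small RNA per cell and fewer cells of a type cannot be told apart.

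EIN5 is the cytoplasmic exoribonuclease that degrades uncapped RNA from its 5′ end, and SKI2 is a helicase that feeds RNA to the exosome for decay from the 3′ end. DCL4 and DCL2 are Dicer enzymes: DCL4 cuts double-stranded RNA into 21-nt siRNAs, and DCL2 cuts it into 22-nt siRNAs. AGO1 is the main Argonaute that loads microRNAs and siRNAs. In leaves, nitrate is reduced to nitrite in the cytosol, and plastidic nitrite reductase turns nitrite into ammonium with electrons from ferredoxin. Glutamine synthetase joins ammonium to glutamate, and glutamate synthase returns glutamate from glutamine and 2-oxoglutarate. GLN2 is the plastidic glutamine synthetase and GLN1;1 to GLN1;3 are cytosolic forms. GLU1 and GLU2 use ferredoxin as the electron donor, with GLU1 the main leaf form, and GLT1 uses NADH. GDH1 and GDH2 are the subunits of mitochondrial glutamate dehydrogenase.

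Because a 22-nt read can match more than 1 copy of a gene family, the stretches that members share are shown first. The longest run of identical bases between each pair below lies in coding sequence, and the bases are RefSeq's for the TAIR10.1 build. The cytosolic synthetases GLN1;1 and GLN1;2 shared 44 bases, from chr5:14933710-14933850 and chr1:24655656-24655781, both on the minus strand and both crossing an intron.
GLN1;1 and GLN1;2: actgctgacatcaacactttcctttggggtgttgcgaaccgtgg
The dehydrogenases GDH1 and GDH2 shared 41 bases, from chr5:6006599-6006748 and chr5:2356443-2356594, both on the plus strand and both crossing an intron.
GDH1 and GDH2: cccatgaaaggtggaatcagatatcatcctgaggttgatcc
The ferredoxin glutamate synthases GLU1 and GLU2 shared 24 bases, from chr5:1137858-1137881 and chr2:17188049-17188072, both on the plus strand.
GLU1 and GLU2: agagatagtgaagatccaaagagt
Such shared stretches were short relative to the transcripts. None of the 22-nt windows of the NIR1 or GLN2 mRNA occurred elsewhere in the genome, and the share was 0.0921% for GLT1, 0.723% for GLU1 and 0.0875% for GLU2. It was 3.51% for GLN1;1, 2.63% for GLN1;2, 1.5% for GLN1;3, 6.07% for GDH1 and 7.24% for GDH2. How the authors counted reads with several matches, and whether they counted by strand, is not given in the sources used here, so values of the GLN1 and GDH genes carry that uncertainty.

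In the TAIR10.1 annotation NIR1 (AT2G15620) lies at chr2:6810395-6812941 on the plus strand with 4 exons, and GLT1 (AT5G53460) at chr5:21700187-21710296 on the plus strand with 20 exons and an mRNA of 7625 bases. GDH2 (AT5G07440) lies at chr5:2355759-2358241 on the plus strand with 7 exons, and GLN2 (AT5G35630) at chr5:13830429-13833542 on the plus strand with 11 exons. GLT1 overlaps a neighbour, AT5G53470, by 127 bases on the same strand. That neighbour had at most 2.09 units in any genotype. On the opposite strand, GLU1 overlaps AT5G04150 by 79 bases and GDH1 overlaps AT5G18180 by 166 bases. AT5G04150 had at most 2.13 units. AT5G18180 had up to 4.02 units, and 3.05 units in ski2-2 dcl2-1 against 2.26 in ski2-2. Its part in the GDH1 values was not tested.

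Values are in the authors' unit, named TPM per the file header and called units here, since the column sums differed between genotypes. The table gives only the mean of each genotype. Because each library adds whole reads times a fixed step, the values of single libraries could be recovered from the printed means for 141 of the 150 member means. Libraries are named A to D by rising step. The 9 means that could not be taken apart, including GLT1 and NIR1 where they were highest, are given as the authors' means and tested only in the authors' deposited table. One read was worth 0.330 to 4.74 units, and the recovered reads numbered 22483 to 298170 per library. The shallowest library was D of ski2-2 dcl4-2, so results of that genotype are also given without it where that changed them. The 4 aerial tissue markers (RCA, RBCS1A, LHCB1.3 and CA1) all had 22-nt reads in every genotype. Their summed level was 484 units in ein5-1 dcl4-2, 1079 in ski2-2 dcl4-2 and 1772 in Col-0, and 571 to 2679 in the other genotypes. In the authors' deposited table all 4 were lower in ein5-1 dcl4-2 than in Col-0. In ski2-2 dcl4-2 against Col-0, 3 were lower and RBCS1A was higher in the same table. The 3 root markers (PYK10, AMT1;5 and NRT2.1) summed to 28.8 units in ein5-1 dcl4-2, 81.3 in ski2-2 dcl4-2 and 0.133 to 7.10 elsewhere. In each genotype 1 or 2 of the 3 were at 0. PYK10 alone had 28.4 units in ein5-1 dcl4-2 and 77.6 in ski2-2 dcl4-2. AMT1;5 and NRT2.1 had 0.399 and 0 units in ein5-1 dcl4-2, and 0 and 3.79 in ski2-2 dcl4-2. Small RNA over a marker gene is not its mRNA level. The part of tissue content in the results was not tested.

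In wild-type plants the plastidic and ferredoxin-dependent leaf enzymes carried most of the members' 22-nt reads. Per kb of mRNA, the Col-0 level was 28.9 units for GLN2, 13.8 for GLU1 and 12.6 for GLN1;2. It was 2.59 for GLN1;1, 2.46 for NIR1, 1.59 for GLT1 and 1.43 for GLN1;3. The lowest were GDH2 at 0.759, GLU2 at 0.689 and GDH1 at 0.406 units per kb, the last from 3 reads in all 4 libraries. In ein5-1 dcl4-2 the order per kb was led by GLT1 at 154, NIR1 at 69.8 and GDH2 at 52.2 units. In ski2-2 dcl4-2 it was led by GLT1 at 8177 units per kb, with GLU1 at 21.0, NIR1 at 15.4 and GLN2 at 14.2 behind it. Together the 10 genes held 6.47% of all genes' 22-nt signal in ski2-2 dcl4-2, 1.3% in ski2-2 dcl4-2 ago1-45, 0.0817% in ein5-1 dcl4-2 and 0.0989% in Col-0. The members' sum was higher in ein5-1 dcl4-2, at 1558 units against 180 in Col-0. The sum over all genes was higher there as well, at 1906264 units against 181889. GLT1 alone made up 99.7% of the members' sum in ski2-2 dcl4-2.

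**Figure D1:**
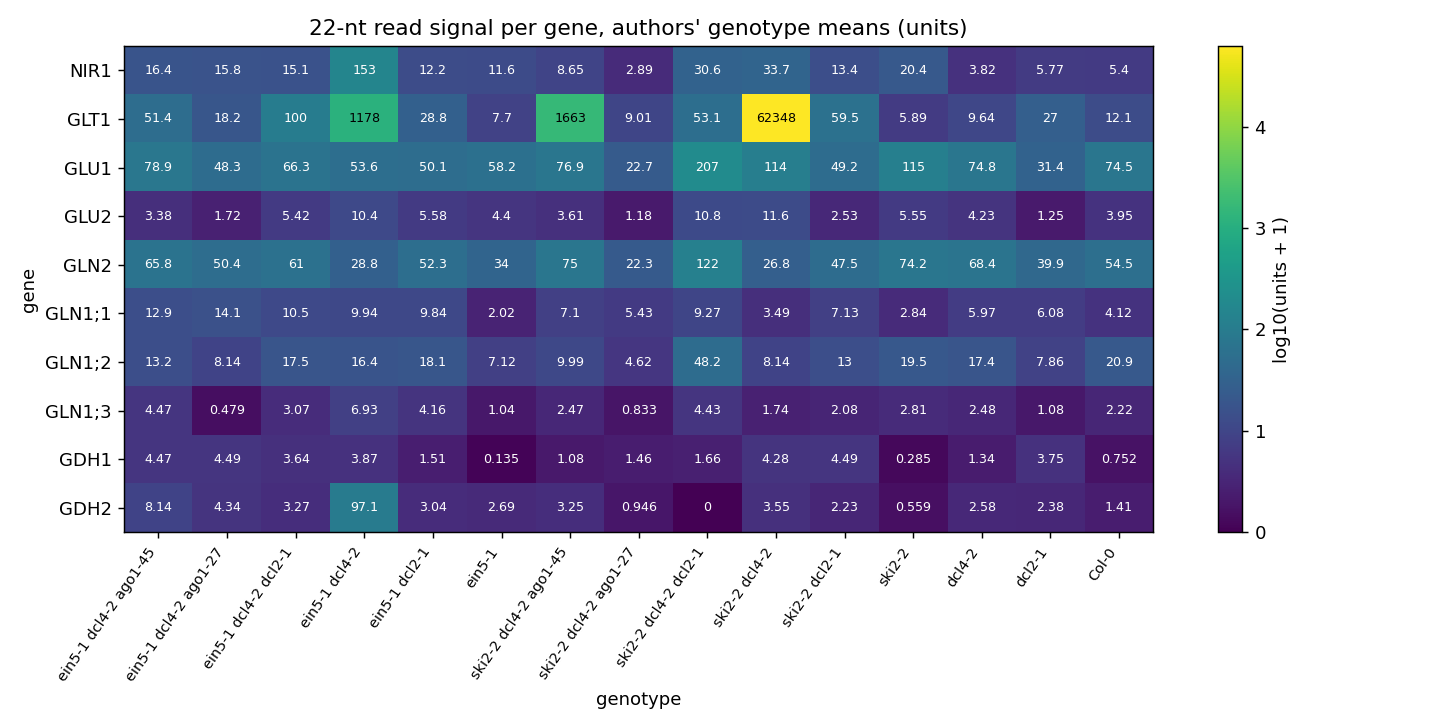
Mean 22-nt small RNA of the 10 genes (rows) in the 15 genotypes (columns), as colour on a log10(units + 1) scale. GLT1 stands out in ski2-2 dcl4-2 at 62348 units, in ski2-2 dcl4-2 ago1-45 at 1663 and in ein5-1 dcl4-2 at 1178; NIR1 and GDH2 peak in ein5-1 dcl4-2 at 153 and 97.1 units.

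NIR1, the only nitrite reductase gene of the set, was highest in ein5-1 dcl4-2. The authors' mean there was 153 units, against 11.6 ± 3.19 units in ein5-1, 3.82 ± 1.8 units in dcl4-2 and 5.40 ± 4.26 units in Col-0 (SD, n = 4 each). In the authors' deposited table the log2 fold change of ein5-1 dcl4-2 was 3.44 over ein5-1 (adjusted p = 2.54e-48) and 5.01 over dcl4-2. In ski2-2 dcl4-2 the NIR1 level was lower but still above wild type: its libraries had 31.1, 18.1, 33.6 and 52.2 units, against 4.07, 0, 8.19 and 9.35 units in Col-0. No library of one group reached the other, and the log2 fold change was 2.80 (SE 0.46, limma adjusted p = 2.86e-06). The parent ski2-2 already had 8.22, 21.9, 28.5 and 22.9 units, which overlaps the double mutant, and the authors' table gave 0.52 for ski2-2 dcl4-2 over ski2-2 (adjusted p = 0.362). NIR1 was also higher in the single mutant ski2-2 than in Col-0, by 2.07 on the log2 scale (SE 0.38, limma adjusted p = 3.42e-05), with 1 library of ski2-2 inside the Col-0 range.

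The loss of DCL2 as well was measured in both backgrounds. In ein5-1 dcl4-2 dcl2-1 its libraries had 12.8, 11.9, 25.4 and 10.4 units, and the mean of 15.1 units was 9.87% of the authors' mean in ein5-1 dcl4-2. The authors' deposited table put ein5-1 dcl4-2 above this triple mutant by 3.12 (adjusted p = 6.66e-32). In ski2-2 dcl4-2 dcl2-1 the libraries had 33.4, 19.2, 34.2 and 35.7 units, a mean 90.8% of that in ski2-2 dcl4-2, and the authors' table gave 0.10 for the double over the triple mutant (adjusted p = 0.901). Whether these changes differed between the EIN5 and SKI2 backgrounds was not tested, because the NIR1 libraries of ein5-1 dcl4-2 were not recovered.

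GLT1, the NADH-dependent glutamate synthase, had the largest range of any member, from 5.89 units in ski2-2 to 62348 units in ski2-2 dcl4-2. That value was the third highest of all genes in ski2-2 dcl4-2, while GLT1 ranked 101 in ein5-1 dcl4-2 and 2122 in Col-0. In ein5-1 dcl4-2 the authors' mean was 1178 units, against 6.91, 6.64, 7.54 and 9.70 units in the libraries of ein5-1, 10.7, 6.36, 16.1 and 5.38 units in dcl4-2 and 16.3, 9.43, 11.3 and 11.4 units in Col-0. No library of these single mutants lay above the Col-0 range. In the authors' deposited table the log2 fold change was 6.97 for ein5-1 dcl4-2 over ein5-1 (adjusted p = 1.75e-209) and 12.95 for ski2-2 dcl4-2 over ski2-2 (adjusted p = 5.26e-200).

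GLT1 stayed far above wild type in ski2-2 dcl4-2 ago1-45. In ski2-2 dcl4-2 ago1-45 the libraries had 1649.5, 1611, 1709 and 1683 units from 1394 to 1587 reads each, a mean of 1663 ± 42.6 units (SD, n = 4). This mean was 2.67% of the authors' mean in ski2-2 dcl4-2, and every library lay above every Col-0 library. In ski2-2 dcl4-2 ago1-27 the 3 libraries had 11.2, 8.64 and 7.17 units, inside or just below the Col-0 range and 0.0145% of the mean in ski2-2 dcl4-2. On the EIN5 side the ago1-45 triple mutant had 58.9, 46.2, 45.5 and 54.9 units and the ago1-27 triple mutant 20.2, 9.57, 24.0 and 19.0 units. These means were 4.36% and 1.55% of the authors' mean in ein5-1 dcl4-2. No test of these 4 comparisons could be made for GLT1, because the libraries of neither double mutant were recovered and the authors' table does not hold them.

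With DCL2 lost as well, GLT1 had far fewer 22-nt reads in both backgrounds. The authors' mean was 100.2 units in ein5-1 dcl4-2 dcl2-1, which is 8.51% of that in ein5-1 dcl4-2. In ski2-2 dcl4-2 dcl2-1 the libraries had 81.9, 35.2, 63.3 and 31.9 units, a mean of 53.1 ± 23.8 units (SD, n = 4) and 0.0851% of that in ski2-2 dcl4-2. The double mutant exceeded the triple mutant in the authors' deposited table by 3.36 (adjusted p = 8.32e-118) on the EIN5 side and by 10.10 (adjusted p = 3.65e-186) on the SKI2 side. Both values stood above the Col-0 libraries, which had 9.43 to 16.3 units.

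GLT1 also carried more 22-nt reads when DCL2 was lost and DCL4 was intact. In ski2-2 dcl2-1 its libraries had 25.8, 65.4, 69.6 and 77.1 units, against 11.3, 9.84, 0 and 2.41 units in ski2-2. The groups did not overlap, and the log2 fold change was 3.60 (SE 0.32, limma adjusted p = 1.48e-26). In ein5-1 dcl2-1 the libraries had 26.5, 22.8, 34.7 and 31.3 units, against 6.64 to 9.70 units in ein5-1, and again the groups did not overlap (1.77, SE 0.26, limma adjusted p = 3.73e-09). In dcl2-1 alone the libraries had 11.5, 25.9, 55.2 and 15.5 units, overlapping Col-0, and the difference of 0.88 (SE 0.28, limma adjusted p = 0.0337) fell to 0.46 (adjusted p = 0.480) without the library at 55.2 units. The first of these 3 comparisons and the second were added after the values had been seen.

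**Figure D2:**
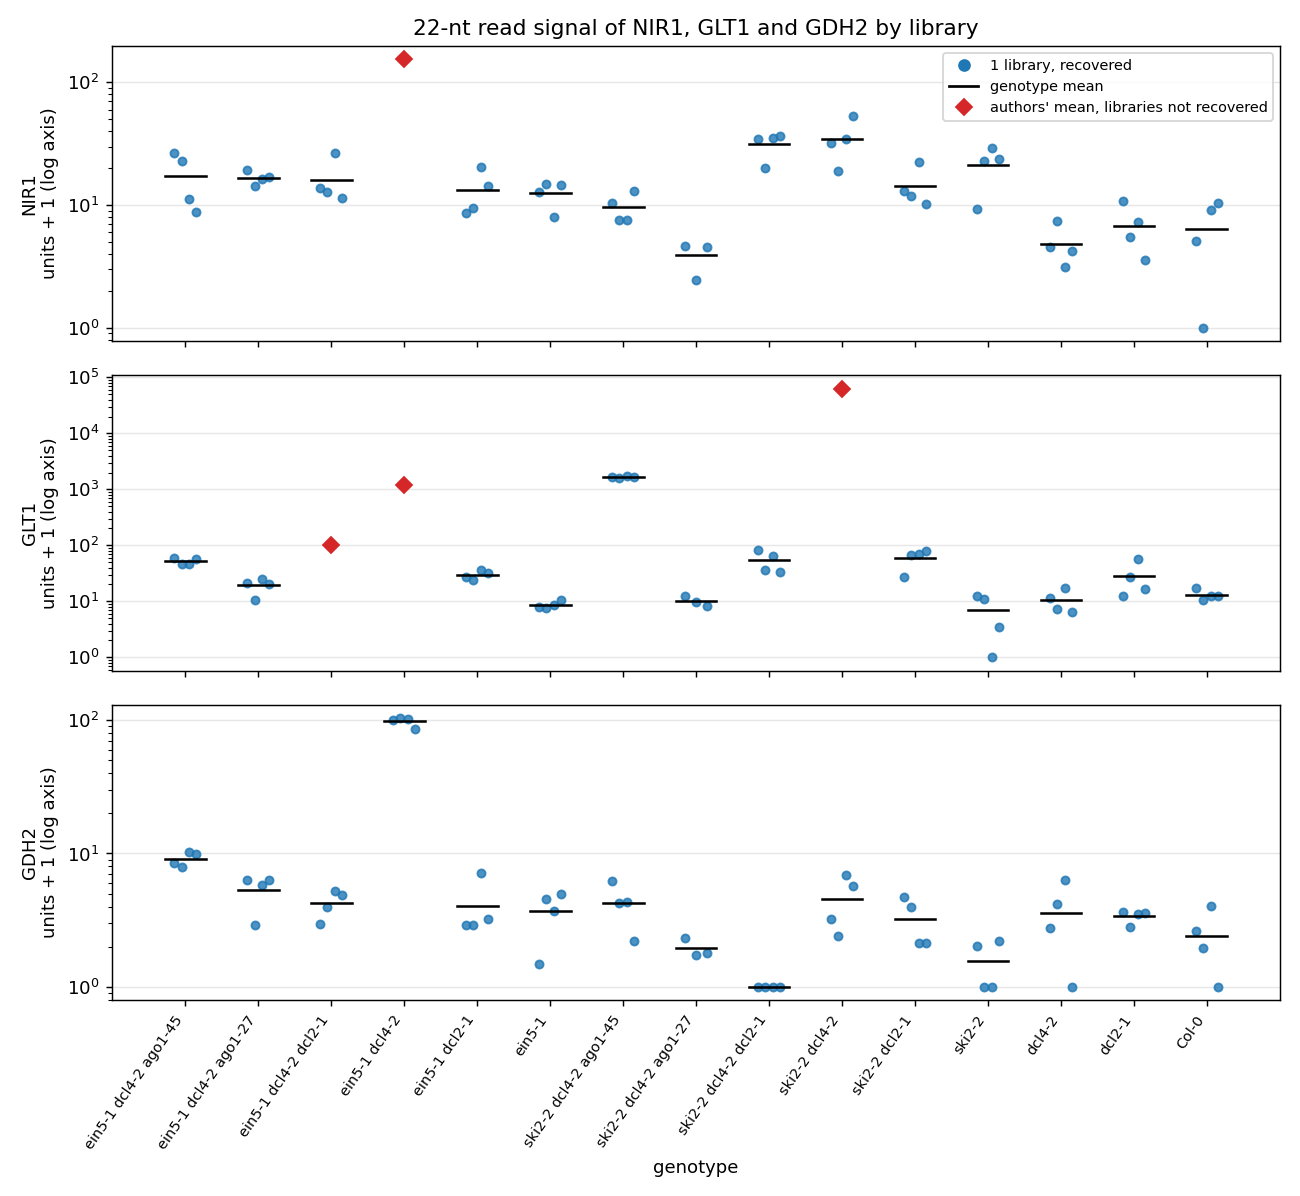
NIR1, GLT1 and GDH2 by genotype, with 22-nt small RNA as units + 1 on a log axis. Points are recovered libraries and lines their mean, and red diamonds are authors' means whose libraries were not recovered. GDH2 is near 100 units in the ein5-1 dcl4-2 libraries and under 10 units elsewhere, and GLT1 keeps about 1663 units in ski2-2 dcl4-2 ago1-45.

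The ferredoxin-dependent glutamate synthase GLU1, the main leaf form, moved little by comparison and in unlike directions in the pair of double mutants. Its libraries had 62.5, 54.2, 58.1 and 39.4 units in ein5-1 dcl4-2, 121, 106, 114 and 114 units in ski2-2 dcl4-2, and 79.7, 67.0, 89.1 and 62.3 units in Col-0. Every library of ski2-2 dcl4-2 was above every Col-0 library (0.61, SE 0.14, limma adjusted p = 0.000631). In ein5-1 dcl4-2 one library overlapped Col-0, and the change of -0.48 (SE 0.17, limma adjusted p = 0.0375) missed the threshold with a pseudocount of 0.1 (adjusted p = 0.0516), without the filter on low values (0.0691) and without any one of 5 libraries. Set directly against each other, ein5-1 dcl4-2 was lower than ski2-2 dcl4-2 by -1.09 on the log2 scale (SE 0.16, limma adjusted p = 1.07e-05), with no overlap. The parent ski2-2 already had an authors' mean of 115 units, and the authors' deposited table gave -0.09 for ski2-2 dcl4-2 over ski2-2 (adjusted p = 0.767).

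GLU1 was highest where DCL2 was lost as well, at an authors' mean of 207 units in ski2-2 dcl4-2 dcl2-1, and the authors' deposited table put ski2-2 dcl4-2 below it by -0.78 (adjusted p = 5.41e-07). The aerial marker sum was highest there too, at 2679 units against 1079 in ski2-2 dcl4-2, and its part was not tested. Of these markers RBCS1A alone was lower there, at 570.5 units against 667. In dcl2-1 alone GLU1 was lower than in wild type: 38.2, 31.3, 27.6 and 28.4 units, against 62.3 to 89.1 units in Col-0 (-1.22, SE 0.17, limma adjusted p = 3.24e-10). The aerial marker sum was 1180 units in dcl2-1 and 1772 in Col-0, with LHCB1.3 alone not lower (695 against 680), and its part was not tested. In ski2-2 dcl4-2 ago1-27 the 3 libraries had 22.5, 19.4 and 26.3 units of GLU1, all below every ski2-2 dcl4-2 library (-2.28, SE 0.19, limma adjusted p = 6.62e-11). The aerial marker sum was also lower there, at 571 units, but LHCB1.3 and CA1 were higher than in ski2-2 dcl4-2. RBCS1A had 114 units against 667. The part of the markers was not tested. GLU2, the minor ferredoxin form, stayed between 1.18 and 11.6 units over the genotypes. It was lower in both ago1-27 triple mutants than in the matching double mutant, at 0.80 to 1.65 units in ski2-2 dcl4-2 ago1-27 against 4.74 to 23.3 units in ski2-2 dcl4-2 (-2.31, SE 0.57, limma adjusted p = 0.00432).

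GLN2, the plastidic glutamine synthetase that takes up photorespiratory ammonium, was lower in both double mutants than in wild type. Its libraries had 35.7, 25.5, 41.8 and 12.1 units in ein5-1 dcl4-2 and 28.9, 41.8, 17.5 and 19.0 units in ski2-2 dcl4-2, against 48.0, 57.5, 53.2 and 59.2 units in Col-0. Neither double mutant overlapped Col-0. The log2 fold change was -1.02 in ein5-1 dcl4-2 (SE 0.27, limma adjusted p = 0.00522) and -1.08 in ski2-2 dcl4-2 (SE 0.23, limma adjusted p = 0.000447). Among the parents, GLN2 had 54.9 to 76.4 units in dcl4-2, 67.2 to 84.5 units in ski2-2 and an authors' mean of 34.0 units in ein5-1. The authors' deposited table gave -0.44 for ein5-1 dcl4-2 over ein5-1 (adjusted p = 0.188), which was not passed. Against ski2-2, ski2-2 dcl4-2 was lower by -1.52 (SE 0.23, limma adjusted p = 3.98e-09), and the interaction of SKI2 and DCL4 loss was -1.83 (SE 0.27, limma adjusted p = 1.87e-06). Of the 4 aerial markers, all in ein5-1 dcl4-2 and 3 in ski2-2 dcl4-2 were lower too, as given above, and their part in the GLN2 change was not tested.

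GLN2 was higher again with ago1-45 in both backgrounds. It had 76.3, 65.4, 59.5 and 61.8 units in ein5-1 dcl4-2 ago1-45, above every ein5-1 dcl4-2 library (1.29, SE 0.24, limma adjusted p = 9.22e-06). It had 80.0, 74.3, 69.5 and 76.1 units in ski2-2 dcl4-2 ago1-45, above every ski2-2 dcl4-2 library (1.53, SE 0.23, limma adjusted p = 6.77e-08). In ski2-2 dcl4-2 ago1-27 the 3 libraries had 16.8, 24.1 and 25.9 units, 1 just below the range of ski2-2 dcl4-2 and 2 inside it, and the test was not passed. In ein5-1 dcl4-2 ago1-27 it had 51.1, 58.4, 41.2 and 50.8 units, which overlaps ein5-1 dcl4-2 (0.91, SE 0.29, limma adjusted p = 0.0179; 0.064 with a pseudocount of 0.1). With DCL2 lost, ein5-1 dcl4-2 dcl2-1 had 58.1, 38.7, 78.3 and 68.8 units (1.14 over ein5-1 dcl4-2, SE 0.30, limma adjusted p = 0.00448), with 1 library inside the range of the double mutant. The authors' mean reached 122 units in ski2-2 dcl4-2 dcl2-1, and the authors' deposited table put ski2-2 dcl4-2 below it by -2.0 (adjusted p = 7.69e-18). The summed level of the 4 aerial markers was also higher in these genotypes. It was 2570 units in ein5-1 dcl4-2 ago1-45 and 2007 in ein5-1 dcl4-2 dcl2-1, against 484 in ein5-1 dcl4-2. It was 1885 units in ski2-2 dcl4-2 ago1-45 and 2679 in ski2-2 dcl4-2 dcl2-1, against 1079 in ski2-2 dcl4-2. RBCS1A alone went the other way on the SKI2 side, at 437 and 570.5 units against 667. The part of the markers in the GLN2 values was not tested.

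The cytosolic synthetase GLN1;2 was also lower on the SKI2 side. Its libraries had 8.89, 8.35, 5.84 and 9.48 units in ski2-2 dcl4-2, against 21.1, 14.1, 27.6 and 20.8 units in Col-0, with no overlap (-1.25, SE 0.37, limma adjusted p = 0.0162). That call was lost without Col-0 library A (adjusted p = 0.0565) or C (adjusted p = 0.0993). With DCL2 lost as well it rose to 63.7, 39.97, 49.6 and 39.5 units in ski2-2 dcl4-2 dcl2-1 (2.42 over ski2-2 dcl4-2, SE 0.36, limma adjusted p = 9.11e-09). On the EIN5 side the triple mutant ein5-1 dcl4-2 dcl2-1 had 12.8 to 27.3 units and ein5-1 dcl4-2 had 10.9 to 26.8 units, and the test was not passed. The difference between these DCL2 effects, a contrast added after the values had been seen, was -2.32 (limma adjusted p = 0.00157), and under quantile normalization -1.49 (adjusted p = 0.0675). GLN1;2 was also lower than in Col-0 in the single mutants ein5-1, at 5.93 to 8.18 units (-1.40, SE 0.28, limma adjusted p = 4.01e-05), and dcl2-1, at 5.16 to 13.8 units (-1.36, SE 0.32, limma adjusted p = 0.0011). The aerial marker sum was 687 units in ein5-1 and 1180 in dcl2-1, against 1772 in Col-0, with LHCB1.3 not lower in dcl2-1. It was 2679 units in ski2-2 dcl4-2 dcl2-1 against 1079 in ski2-2 dcl4-2, with RBCS1A lower. The part of the markers in the GLN1;2 values was not tested.

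GLN1;1 and GLN1;3, the other cytosolic forms, rested on few reads. Over the genotypes GLN1;1 ran between 2.02 units in ein5-1 and 14.1 units in ein5-1 dcl4-2 ago1-27, and GLN1;3 between 0.479 units in ein5-1 dcl4-2 ago1-27 and 6.93 units in ein5-1 dcl4-2. GLN1;1 had 10.4, 11.2, 9.08 and 9.10 units in ein5-1 dcl4-2, against 1.98, 0.51, 2.15 and 3.42 units in ein5-1 (1.95, SE 0.45, limma adjusted p = 0.00125). That difference was 0.91 (adjusted p = 0.162) once all libraries were given the same distribution by quantile normalization. In ski2-2 dcl4-2, 2 of the 4 libraries had no GLN1;1 read.

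**Figure D3:**
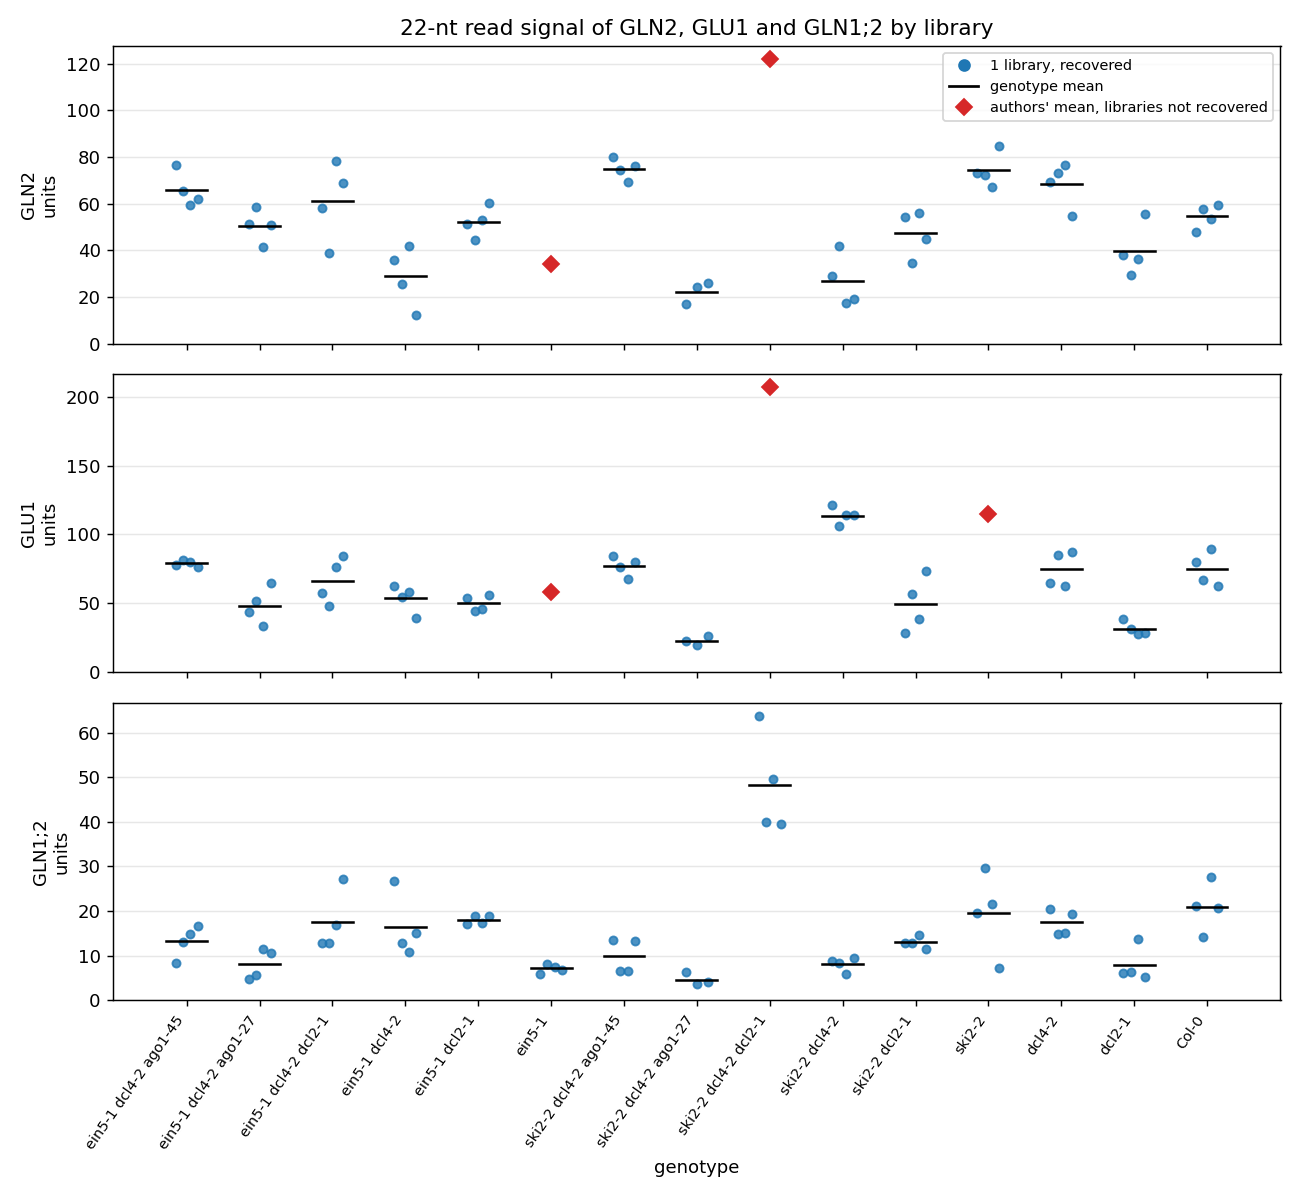
GLU1, GLN2 and GLN1;2 by genotype, with 22-nt small RNA in units. Points are recovered libraries, lines their mean, and red diamonds authors' means whose libraries were not recovered. All 3 genes peak in ski2-2 dcl4-2 dcl2-1, at 207, 122 and 48.2 units, and GLN2 lies below its Col-0 libraries in both ein5-1 dcl4-2 and ski2-2 dcl4-2.

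GDH2, a subunit of the mitochondrial dehydrogenase that works mainly in the direction of glutamate breakdown, was high in ein5-1 dcl4-2 alone of the 15 genotypes. Its libraries there had 99.6, 102, 102 and 84.9 units (67, 64, 56 and 28 reads), against 0.494, 3.58, 2.69 and 3.996 units in ein5-1, 1.78, 3.18, 5.38 and 0 units in dcl4-2 and 1.63, 0.943, 3.07 and 0 units in Col-0. The double mutant stood far above each parent, and the change on joint loss exceeded the sum of the single changes by 4.41 on the log2 scale (SE 0.70, limma adjusted p = 2.74e-05). In ski2-2 dcl4-2 the libraries had 2.22, 1.39, 5.84 and 4.74 units from 8 reads in all. Set against each other, ein5-1 dcl4-2 was higher than ski2-2 dcl4-2 by 4.55 (SE 0.38, limma adjusted p = 1.1e-09). The run GDH2 shares with GDH1 is printed above; GDH1 itself had 3.87 units in ein5-1 dcl4-2. The other gene with most shared windows, AT1G42490, had 2.33 units in ein5-1 dcl4-2 and at most 0.671 elsewhere.

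The GDH2 signal was low in every triple mutant of this background. It was 1.97, 2.98, 4.23 and 3.89 units in ein5-1 dcl4-2 dcl2-1 (-4.55, SE 0.33, limma adjusted p = 9.71e-12). It was 7.47, 6.98, 9.29 and 8.83 units in ein5-1 dcl4-2 ago1-45 (-3.43, SE 0.25, limma adjusted p = 7.68e-20) and 5.35, 1.91, 4.79 and 5.29 units in ein5-1 dcl4-2 ago1-27 (-4.26, SE 0.32, limma adjusted p = 2.53e-15). All of these values lay below every library of ein5-1 dcl4-2, and all 4 libraries of the ago1-45 triple mutant were above every Col-0 library. In ski2-2 dcl4-2 dcl2-1 no GDH2 read was found in any of the 4 libraries, where 3 reads over the group would be a mean of 1.26 units. GDH1, the partner subunit, never exceeded 4.49 units in any genotype and had 1 read in all libraries of ein5-1 and 1 in all of ski2-2. In ski2-2 dcl2-1 it had 18 reads over the 4 libraries, and that comparison with ski2-2 passed the test (limma adjusted p = 0.0234) but not with a pseudocount of 0.1 (adjusted p = 0.0797).

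The members' counts were read against all genes tested. In ein5-1 dcl4-2 against Col-0, limma tested 8 members and called 3 higher (GLU2, GLN1;1 and GDH2) and 2 lower (GLU1 and GLN2), where 30.1% of all genes were called higher and 4.0% lower. The median log2 fold change was 1.03 over these 8 members and 0.87 over all genes. This general rise depended on scaling: with quantile normalization the median of all genes was -0.11, and the calls over all genes turned from 5210 higher and 692 lower to 2117 higher and 2769 lower. GDH2 remained called under it, and GLU2 and GLN1;1, at 0.38 and 0.34, were not. Of the 10 members, the authors' deposited table had 3 higher (NIR1, GLT1 and GDH2) and 2 lower (GLU1 and GLN2), against 21.1% and 4.44% of all genes. The test was also recomputed here from the deposited fold changes and p-values after subtraction of the median fold change of all genes. NIR1, GLT1 and GDH2 were then still higher and GLN1;2 joined the lower members. The shares of all genes given here are those without that subtraction, and calls over all genes after it were not counted.

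In ski2-2 dcl4-2 against Col-0, limma tested 9 members and called 2 higher (NIR1 and GLU1) and 2 lower (GLN2 and GLN1;2), against 6.83% and 6.28% of all genes. The authors' deposited table called 4 of 10 higher (NIR1, GLT1, GLU1 and GLU2) and the same 2 lower, against 8.13% and 7.74% of all genes. Without the shallow library D, GLU2 was called higher as well (1.66, limma adjusted p = 0.0181). With all libraries, the median of the tested members was 0.61, beside 0.07 over all genes.

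Against the single decay mutants the counts differed. In ein5-1 dcl4-2 against ein5-1, 5 of 6 tested members were higher and none lower (30.1% and 4.18% of all genes), and 1, GDH2, was called under quantile normalization. That normalization turned the calls over all genes from 5162 higher and 718 lower to 1921 higher and 2654 lower. The authors' deposited table called 7 of 10 higher and none lower (21.9% and 4.69%). In the test recomputed here after subtraction of the median of all genes, NIR1, GLT1 and GDH2 were higher. Its calls over all genes were not counted. GLU1 (-1.25, adjusted p = 1.75e-09) and GLN2 (-1.33, adjusted p = 2.44e-06) were lower in that recomputed test. In ski2-2 dcl4-2 against ski2-2, of 8 tested members GLN2 alone was called, as lower (6.03% higher and 5.76% lower over all genes). Without ski2-2 dcl4-2 library D, GLN1;2 was called lower as well (-1.11, limma adjusted p = 0.0466). The authors' deposited table called GLT1 higher and GLN2 and GLN1;2 lower (7.28% and 7.32%).

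Against dcl4-2, limma called 2 of 8 members higher (GLU2 and GDH2) and 2 lower (GLU1 and GLN2) in ein5-1 dcl4-2, where 29.4% and 3.95% of all genes were called. GLU2 lost its call under quantile normalization, with a pseudocount of 0.1 and without the filter. GLU1 lost its call with that pseudocount (adjusted p = 0.0545), without the filter (0.0747) and without any one of 4 libraries. The authors' deposited table called NIR1, GLT1 and GDH2 higher and GLU1 and GLN2 lower (19.7% and 4.78%). In ski2-2 dcl4-2 against dcl4-2, limma called 2 of 9 higher (NIR1 and GLU1) and 1 lower (GLN2), beside 7.99% and 6.14% of all genes, and 5 members without library D. GLU1 there was 0.61 (limma adjusted p = 0.000539), but 0.17 (adjusted p = 0.481) under quantile normalization. The authors' deposited table added GLT1 as higher and GLN1;2 as lower (10.4% and 9.64%). All 8 deposited comparisons use the libraries of 1 of the double mutants, so they share samples and are given side by side only.

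**Figure D4:**
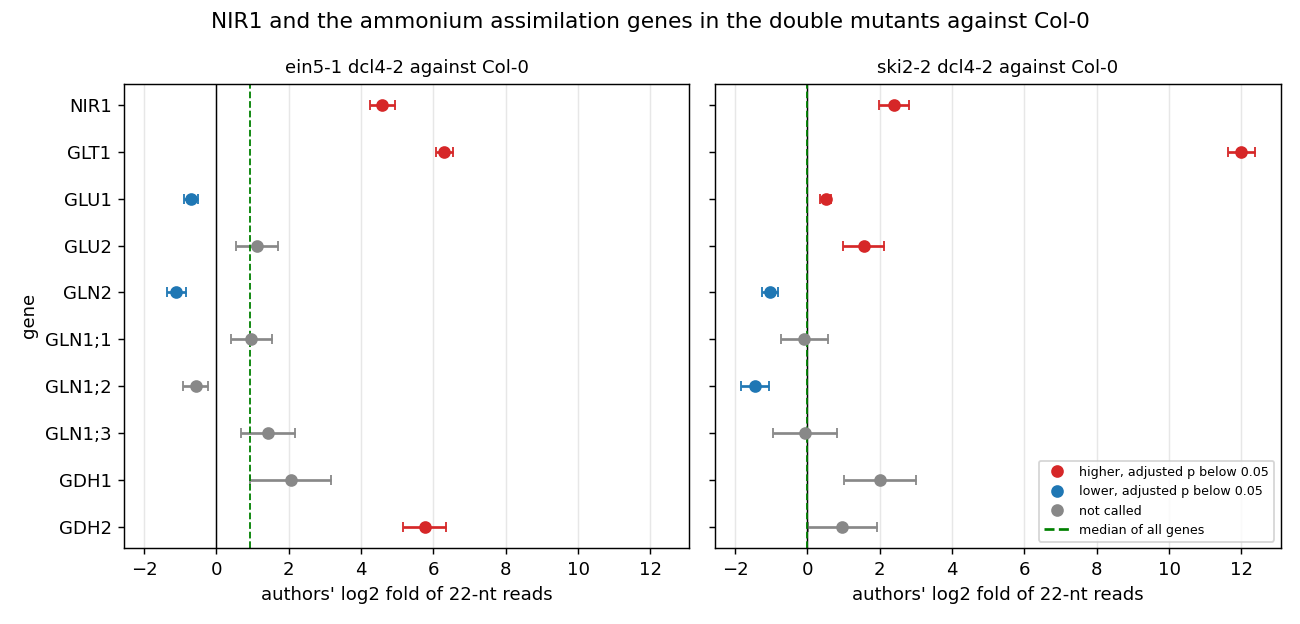
Log2 fold changes of the 10 genes in the authors' deposited table, for ein5-1 dcl4-2 (left) and ski2-2 dcl4-2 (right), each over Col-0. Red points were called higher and blue points lower at the authors' adjusted p below 0.05, and grey points were not called. Bars are the standard error derived from the authors' p-value, and the dashed line is the median of all genes. Over all 8 deposited comparisons, most of them not drawn, GLT1 was called higher in 8, NIR1 in 6 and GDH2 in 4, and GLN2 was called lower in 7.

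For the loss of DCL2, limma called 1 of 8 tested members higher (GLN2) and 1 lower (GDH2) in ein5-1 dcl4-2 dcl2-1 against ein5-1 dcl4-2, where 2.92% and 21.3% of all genes were called. The deposited comparison runs the other way, as double over triple mutant, and called NIR1, GLT1 and GDH2 higher and GLN2 lower in ein5-1 dcl4-2 (16.7% and 4.02% of all genes). In ski2-2 dcl4-2 dcl2-1 against ski2-2 dcl4-2, 1 of 7 tested members, GLN1;2, was higher and none lower (7.37% and 4.45%). The authors' deposited table, again as double over triple mutant, called GLT1 higher and GLU1, GLN2 and GLN1;2 lower in ski2-2 dcl4-2 (7.30% and 8.93%).

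For the ago1 alleles, limma called 2 of 8 tested members higher (GLU1 and GLN2) and 2 lower (GLU2 and GDH2) in ein5-1 dcl4-2 ago1-45 against ein5-1 dcl4-2 (3.36% and 22.3% of all genes). With ago1-27 it called 1 of 8 higher (GLN2) and 3 lower (GLU2, GLN1;3 and GDH2), beside 3.01% and 17.4%. The GLN1;3 call came from 2 reads in the 4 libraries of the triple mutant and 16 in those of the double mutant. GLU2 lost its call in both under quantile normalization, and with ago1-45 also without either of 2 libraries. In ski2-2 dcl4-2 ago1-45 against ski2-2 dcl4-2, 1 of 9 was higher (GLN2) and 3 lower (NIR1, GLU1 and GLU2), beside 6.86% and 14.3% of all genes. GLU2 there lost its call with a pseudocount of 0.1 (adjusted p = 0.166), without the filter (0.0505), under quantile normalization (0.113) and without any one of 3 libraries. With ago1-27, 3 of 9 were lower (NIR1, GLU1 and GLU2) and none higher, beside 8.86% lower and 5.0% higher. NIR1 had 9.35, 6.56, 6.62 and 12.1 units in ski2-2 dcl4-2 ago1-45 (-1.79, SE 0.35, limma adjusted p = 3.18e-05). It had 3.63, 1.44 and 3.58 units in ski2-2 dcl4-2 ago1-27 (-3.13, SE 0.40, limma adjusted p = 5.57e-07). The ago1-27 triple mutant of this background was the deepest genotype and held the lowest mean of NIR1, GLU1, GLU2, GLN2 and GLN1;2. Its aerial marker sum was low too, at 571 units against 1079 in ski2-2 dcl4-2, but the 4 markers did not move together. RBCS1A (114 against 667 units) and RCA (109 against 134) were lower. LHCB1.3 (319 against 269) and CA1 (29.1 against 9.27) were higher. The part of the markers was not tested.

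Among the single mutants, dcl2-1 had 1 of 10 members higher than Col-0 (GLT1) and 2 lower (GLU1 and GLN1;2), against 3.64% and 3.51% of all genes. In dcl4-2 no member passed in limma, where 1.38% of all genes were higher and 1.35% lower and 1403 of 11757 genes had an unadjusted p under the threshold of 0.05. Of the 10 members, 1, GLN2, had such a p (0.32, limma adjusted p = 0.356). In ein5-1, 1 of 7 tested was higher (NIR1) and 1 lower (GLN1;2), against 8.72% and 4.81%. The NIR1 call there was lost without Col-0 library B, which has no NIR1 read (0.64, adjusted p = 0.223). In ski2-2, 1 of 7 was higher (NIR1) and 1 lower (GLT1), against 0.893% and 0.776%, and the GLT1 call was lost without any one of 6 libraries, with a pseudocount of 0.1 and without the filter. With DCL2 lost and DCL4 intact, ein5-1 dcl2-1 had 3 of 7 members higher than ein5-1 (GLT1, GLN1;1 and GLN1;2) and none lower, against 7.01% and 3.70%. In ski2-2 dcl2-1 against ski2-2, 2 of 9 were higher (GLT1 and GDH1) and 1 lower (GLN2), against 3.16% and 3.68%.

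Set against each other, ein5-1 dcl4-2 was higher than ski2-2 dcl4-2 for 2 of 8 tested members (GLN1;1 and GDH2) and lower for 1 (GLU1), against 20.3% and 2.00% of all genes. The GLN1;1 call was lost with a pseudocount of 0.1 (adjusted p = 0.114), under quantile normalization (0.92, adjusted p = 0.349) and without any one of 6 libraries. Without the shallow ski2-2 dcl4-2 library D it was 1.4 (adjusted p = 0.092). GLT1 and NIR1 could not be tested in it. By the authors' means GLT1 in ein5-1 dcl4-2 was 1.89% of its level in ski2-2 dcl4-2, while NIR1 was 4.54 times as high. The contrast of joint loss over the sum of single losses was higher for GLN1;2 and GDH2 with EIN5 (18.4% of all genes higher, 3.02% lower) and lower for GLN2 with SKI2 (4.22% and 4.19%). With EIN5 this contrast could not be tested for NIR1, GLT1, GLU1 and GLN2, and with SKI2 not for GLT1 and GLU1. The GLN1;2 contrast of 1.26 was lost under quantile normalization (0.35, adjusted p = 0.665).

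The genes around this pathway, in lists chosen with earlier results of these data known, were counted in the authors' deposited table. Nitrate reductases NIA1 and NIA2, which supply nitrite, had authors' means of 393891 and 374800 units in ein5-1 dcl4-2, 198967 and 168986 units in ski2-2 dcl4-2 and 57.9 and 77.2 units in Col-0. Of the 12 nitrate uptake and reduction genes, 4 were higher than in Col-0 in ein5-1 dcl4-2 and none lower, of 9 with an adjusted p, and 3 after subtraction of the median of all genes. In ski2-2 dcl4-2 the 2 higher genes, of 6 with an adjusted p, were NIA1 and NIA2. These counts and those that follow stand beside 21.1% of all genes called higher in ein5-1 dcl4-2 and 8.13% in ski2-2 dcl4-2. All 4 genes of electron and cofactor supply rose in ein5-1 dcl4-2: root ferredoxin FD3 by 4.0, the ferredoxin reductases RFNR1 and RFNR2 by 3.26 and 3.91, and UPM1, the methyltransferase of siroheme synthesis, by 6.03 on the log2 scale. In ski2-2 dcl4-2, 1 of the 2 with an adjusted p, RFNR2, was higher.

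Downstream of glutamine, 2 of 7 asparagine and aspartate genes were higher in ein5-1 dcl4-2, 1 of them after subtraction of the median of all genes, and 1 of 7 in ski2-2 dcl4-2. The counts without that subtraction were read beside the same 21.1% and 8.13% of all genes. The asparagine synthetase ASN2 was higher in both, at 46.0 units in ein5-1 dcl4-2 (5.55), 12.8 units in ski2-2 dcl4-2 (3.53) and 0.772 units in Col-0. No ammonium transporter of 6, no other family member of 3 (GLN1;4, GLN1;5 and GDH3) and not the PII protein gene GLB1 was called in either comparison with Col-0 in the authors' DESeq2 test. At an unadjusted p under 0.05 it had 1 of these genes, AMT2;1, in ein5-1 dcl4-2 and AMT1;3 and GLB1 in ski2-2 dcl4-2. In the test recomputed here after subtraction of the median of all genes, AMT1;2 was lower in ein5-1 dcl4-2. Only 2 of the transporters had an adjusted p in ein5-1 dcl4-2 and 1 in ski2-2 dcl4-2.

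Genes most like the 3 members that rose were sought by Pearson's r of log2(mean + 1) over the 15 genotype means, among 2881 genes with a mean of at least 10 units. The genotypes share parents and 1 or 2 of them carry the highest values, so r is a description. That mean is over the 15 genotype means, so a gene low in most genotypes passes only through a genotype where it is high. The filter thus favours genes that are high in the same genotype as a member, and their r is no support for a link. The gene nearest to NIR1 was AT5G23110 (r = 0.936), followed by AT5G20190 (0.902) and APR1, a sulfate assimilation reductase (0.891). APR1 had 2042 units in ein5-1 dcl4-2, 192 in ski2-2 dcl4-2 and 5.12 in Col-0. Nearest to GLT1 was the DNA methyltransferase gene MET1 (r = 0.952), at 24.5 units in ein5-1 dcl4-2, 460 in ski2-2 dcl4-2 and 1.42 in Col-0, and then AT1G29350 (0.903) and AT1G19835 (0.894). Nearest to GDH2 were PRIN2 (r = 0.939), AT2G23120 (0.929) and FRO8 (0.928). FRO8, of the ferric reductase oxidase family, had 429 units in ein5-1 dcl4-2, 2.64 in ski2-2 dcl4-2 and 1.36 in Col-0.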

How the data were processed

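Small RNA was sequenced in 59 libraries of 15 Arabidopsis genotypes. The authors mapped reads with Bowtie 1.2.2 to TAIR10, handled them with SAMtools 1.9 and compared genotypes with DESeq2 (version not given), per the submitters' processing notes. The deposited signal is the mean 22-nt TPM of each genotype, per the file headers; column sums ran from 142140 to 1906264, so the values are called units. The deposited log2 fold changes, p-values and adjusted p-values cover 8 comparisons, per the file headers.

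From each mean, the library values were recovered as the single combination of whole reads times a step per library that matched within 0.6 of the last of 10 printed digits, searched up to 600 mean steps (3000 for the full-precision ago1 columns). The GLT1 mean of ski2-2 dcl4-2 ago1-45 lay above that limit and was searched without one. Values were recovered for 98.8% to 99.96% of genes in each genotype. The recovery was checked on simulated data, within the limit only. The step gives 210875 to 3027590 reads as the denominator of a library. Within each genotype, all pairs of libraries differed by more than sampling noise.

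Library values were compared with limma 3.58.1 (R 4.3.3) on log2(units + 1) with a trend of the variance on the mean level. Genes entered if their mean over the groups compared was 1 unit or more and both were recovered; p-values were Benjamini-Hochberg adjusted, with 0.05 as the threshold. Fold changes are on that scale and understate the change of low genes. Limma set the difference between genotypes against the spread between libraries of a genotype, described as biological replicates. That spread was moderated toward the trend over all genes. The design had foreseen library values either in the table or recovered from it. All 10 members are named; genes of like pattern are the 3 with the highest r. Members and lists were chosen with earlier results of these data known. Alternatives were a pseudocount of 0.1, no filter, quantile normalization, leaving out each library, and the authors' test with and without subtraction of the median fold change. The centred form of the authors' test was computed here and is not the authors' own. Each standard error was derived from the deposited fold change and p-value. A normal test of the shifted fold change was then Benjamini-Hochberg adjusted again. Calls of the centred form over all genes were not counted. Counting intervals are not given, since reads carry no molecular identifiers.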

Additional observations from a re-analysis of the deposited data

Results flagged for a closer look

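In 130 groups of 4 libraries, 16 had 1 library whose distance from the nearest other, divided by the range, was above Dixon's critical value for 4 samples; chance flags about 1 in 20 such groups, and many of these values are 0 to 5 reads. The 2 that touch a member's main result were small beside it. GDH2 in ein5-1 dcl4-2 had 84.9 units in library D, against 99.6 to 102 in the others. NIR1 in ein5-1 dcl4-2 dcl2-1 had 25.4 units in library C, against 10.4 to 12.8.

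NIR1 in ski2-2 dcl4-2 dcl2-1 had 19.2 units in library B, against 33.4 to 35.7. GLU2 had 5.02 units in dcl2-1 library C, where the others had 0, 3.42 units in ski2-2 library C against 6.04 to 6.56, and 0 in ski2-2 dcl4-2 ago1-45 library B against 4.41 to 5.20. GLN1;1 had 16.7 units in ein5-1 dcl4-2 ago1-45 library D against 11.3 to 12.1, and 4.83 units in ski2-2 library D against 2.05 to 2.28. GLN1;2 had 13.8 units in dcl2-1 library C against 5.16 to 6.26. That dcl2-1 library also held the high GLU2 and GLT1 values.

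GLN1;3 had 6.89 units in ein5-1 dcl4-2 dcl2-1 library A against 1.3 to 2.12, and 1.91 units in ein5-1 dcl4-2 ago1-27 library B, where the others had 0. GDH1 had 0 in Col-0 library A against 0.943 to 1.04, 0.538 units in ein5-1 library C and 1.14 units in ski2-2 library C, the others at 0 in both. GDH2 had 6.12 units in ein5-1 dcl2-1 library C against 1.9 to 2.23, and 1.91 units in ein5-1 dcl4-2 ago1-27 library B against 4.79 to 5.35.

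For GLN1;2 and GDH2, 2 contrasts between the EIN5 and SKI2 backgrounds, added after the values had been seen, passed the test, but none of these calls held under every alternative. The DCL2 loss effect in ein5-1 dcl4-2 minus that in ski2-2 dcl4-2 was -2.32 for GLN1;2 (limma adjusted p = 0.00157) and -2.49 for GDH2 (0.0217), where 1.35% of all genes were higher and 14.8% lower. The EIN5 minus SKI2 difference in dcl4-2 plants, less the same in DCL4 plants, was 2.06 for GLN1;2 (limma adjusted p = 0.0145) and 3.35 for GDH2 (0.00151), where 11.1% of all genes were higher and 1.22% lower. Under quantile normalization the GLN1;2 values were -1.49 (adjusted p = 0.0675) and 1.3 (0.168). With a pseudocount of 0.1 the GDH2 values were 0.079 (adjusted p = 0.978) and 2.26 (0.325). GDH2 has 0 reads in ski2-2 dcl4-2 dcl2-1.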

How the results depend on the processing

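No paired analysis was possible because the recovered libraries carry no replicate numbers. Of 1228 values with 1 library left out, 1144 kept direction and side of the threshold, 66 lost the call and 18 gained one; for quantile normalization it was 156, 16 and 9 of 181. Members called in ein5-1 dcl4-2 against Col-0 numbered 5, and 2 with a pseudocount of 0.1 (2 to 4 with a library left out); against ein5-1 5, and 1 under quantile normalization; against dcl4-2 4, and 2 with a pseudocount of 0.1 or no filter (2 to 4). In ski2-2 dcl4-2 against ski2-2 it was 1, and 3 under quantile normalization and in the authors' test, centred or not (1 to 2); against dcl4-2 3, and 5 in the authors' test, centred or not (3 to 5). In ein5-1 dcl4-2 dcl2-1 against ein5-1 dcl4-2 it was 2, and 4 in the authors' test and 5 centred. In ski2-2 dcl4-2 dcl2-1 against ski2-2 dcl4-2 it was 1, 2 with a pseudocount of 0.1 or quantile normalization, and 4 in the authors' test, centred or not (1 to 2). The authors' test covers members whose libraries were not recovered. Limma calls over all genes moved too. In ein5-1 dcl4-2 against Col-0 they were 5210 higher and 692 lower, and 4309 and 523 with a pseudocount of 0.1. Against dcl4-2 they were 5062 and 680, 4094 and 522 with that pseudocount and 4720 and 643 without the filter. In ski2-2 dcl4-2 against ski2-2 they were 779 and 745, and 758 and 838 under quantile normalization. With a pseudocount of 0.1, ein5-1 and ski2-2 against Col-0 had 1 call, not 2, as had ski2-2 without the filter (1 to 2 each). In ski2-2 dcl2-1 against ski2-2 the 3 calls ran from 1 to 3, the lowest without ski2-2 dcl2-1 library B. The EIN5 and DCL4 interaction had 2 calls, and 1 under quantile normalization; both added contrasts had 2, and 1 under quantile normalization and with a pseudocount of 0.1. GDH2's DCL2 loss difference was -2.49, and 0.079 with that pseudocount. With it, calls over all genes in ein5-1 against Col-0 went from 1054 higher and 581 lower to 779 and 419. In ski2-2 against Col-0 they went from 107 and 93 to 61 and 48, and to 83 and 68 without the filter. Over all genes, ski2-2 dcl4-2 dcl2-1 against ski2-2 dcl4-2 had 1045 higher and 631 lower. These were 623 and 440 with a pseudocount of 0.1, and 865 and 836 under quantile normalization. The EIN5 and DCL4 interaction had 2845 higher and 467 lower, and 1028 and 1320 under quantile normalization. Calls over all genes with 1 library left out are not given here. Where 1 read is worth up to 4.74 units, members at a few reads limit what can be seen.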
